A study of Homo sapiens with 13 samples.

Results

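The first hour of the response of MCF10A cells to epidermal growth factor (EGF) was examined on 4 of the 13 arrays of the series: 1 of unstimulated cells and 1 each at 20, 40 and 60 min after EGF. MCF10A is a spontaneously immortalized line of normal human mammary epithelial cells. Its medium held insulin, cholera toxin, hydrocortisone and horse serum, a mixture that the study defined as serum, together with EGF at 10 ng/ml. All cells, those of the unstimulated array included, had been deprived of serum for 24 h. The other 9 arrays, used here for comparison only, were EGF at 120, 240 and 480 min and the serum mixture at the same 6 times. No source used here gave the dose of EGF for stimulation. The array treated as EGF at 20 min carried 20 min in its title and 40 min in its description, and the counts of calls and of 2-fold genes, PRR7, the list medians and the leading genes are also given without it.

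No condition had a second array. The 3 EGF arrays are therefore 3 times and not 3 replicates, and every difference from the unstimulated state carries the error of the same lone array. Values are MAS5 signals, an intensity per probe set on a linear scale, and differences were taken on the scale of log2(signal + 6), which understates the change of dim genes. Across the 13 arrays 33.3% to 39.99% of probe sets had a signal under 20, and the ratio of 3' to 5' signal of the actin control ran from 1.31 to 1.792. The unstimulated array had the highest of these ratios (1.792) and EGF at 60 min the lowest (1.31), and the part of this in the results below was not tested. Basal epithelial markers were bright on the unstimulated array, with KRT14 at a signal of 5905.3 and CDH3 at 1728.2. Of 13 markers of other cell types 3 passed the filter on dim genes, and their summed signals were 280.5 unstimulated and 273.5, 287.6 and 249.9 at 20, 40 and 60 min. Most of that sum was CD14 (178 unstimulated; 200.1, 219.9 and 195.3 after EGF), while the fibroblast genes COL1A1 (72.1; 44.8, 54.2 and 38.7) and PDGFRB (30.4; 28.6, 13.5 and 15.9) had mean log2 differences of -0.51 and -0.46.

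EGF binds its receptor tyrosine kinase EGFR, which signals through RAS and the RAF, MEK and ERK kinases to transcription factors already present in the nucleus, among them the ELK proteins bound with SRF at promoters. Genes that these factors switch on without new protein synthesis are called immediate early genes. They encode transcription factors of the FOS, JUN and EGR families, feedback inhibitors such as the dual-specificity phosphatases, and secreted proteins. In mammary epithelium EGF supports proliferation and migration.

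Of 7731 genes tested, 37 (0.479%) were at least 2-fold above the unstimulated array on all 3 EGF arrays and 3 (0.0388%) were at least 2-fold below on all 3. The 37 included the transcription factors EGR1, EGR3, FOS and FOSB, the matrix-associated secreted proteins CCN1 and CCN2, the chemokines CXCL2 and CXCL8, the cytokine IL6 and PTGS2, the inducible cyclooxygenase. By limma, with the spread taken from the differences between times within the 4 stimulated groups (8 residual degrees of freedom), 1 gene was past the threshold of an adjusted p under 0.05. That gene, PRR7, was higher (0.0129% of genes tested), 0 were lower, and 253 higher and 238 lower had an unadjusted p under 0.05.

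The promoter stretches below show which sequence elements stand before genes of this response. They are from RefSeq (GRCh38.p14), written from 5′ to 3′ on the gene's strand, with the matched element in capitals. The CArG box is the binding element of SRF, and in a window of 250 bases before to 50 after the start site it occurred in 1.27% of 6457 promoters of tested genes. EGR1 (chr5:138465359-138465420, plus strand) and SRF itself (chr6:43171224-43171268, plus strand) each held 2. They were the only ones among the 12 matched promoters of immediate early factors.
EGR1, CArG boxes: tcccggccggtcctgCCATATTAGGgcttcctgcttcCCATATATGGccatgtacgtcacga
SRF, CArG boxes: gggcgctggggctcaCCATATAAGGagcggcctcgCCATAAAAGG
The NF-kB element is shown for CXCL2 (chr4:74099248-74099288, minus strand), IL6 (chr7:22727112-22727151, plus strand) and CCN2 (chr6:131951443-131951482, minus strand). It was in 6.86% of promoters of tested genes.
CXCL2, NF-kB element: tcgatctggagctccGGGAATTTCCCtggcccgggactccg
IL6, NF-kB element: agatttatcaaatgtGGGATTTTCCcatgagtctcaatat
CCN2, NF-kB element: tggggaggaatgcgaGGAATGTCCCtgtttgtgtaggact
The core of the cAMP response element, TGACG, is shown for FOS (chr14:75278749-75278783, plus strand).
FOS, TGACG: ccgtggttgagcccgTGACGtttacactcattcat

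Of the 37 genes 30 had a promoter in the table. On either strand, 13 of the 30 (43.3%) held TGACG, against 35.6% of promoters of tested genes. A TATAAA stretch was present in 8 of the 30 (26.7%; ADM, CCN2, CXCL8, FGF6, FOS, FOSB, LCP1 and PTGS2), against 5.68%. The NF-kB element was in 4 of the 30 (13.3%; CCN2, CXCL2, IL6 and HLA-DQB2), the EGR site GCGNGGGCG in 3 (10%, against 16.1%) and the CArG box in 1 (3.33%), EGR1. The full element TGACGTCA, which contains TGACG, was in 1 of the 30 (3.33%; FGF6) against 3.5%, and the AP-1 element in 1 (CXCL8) against 3.13%. These are matches of letters in one window, and binding was not measured.

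Of the transcription factors, EGR1 and EGR3, zinc-finger proteins, stood highest at 40 and 60 min. EGR1 had a signal of 150.7 unstimulated and 473.5, 984.6 and 908.8 at 20, 40 and 60 min, a mean log2 difference of 2.34 (SE 0.65, adjusted p = 0.518). A second EGR1 probe set read 50.4 unstimulated and 269.9, 500.8 and 553.3 after EGF. EGR3 read 11.5, 113.3, 184.3 and 182.4, a difference of 3.24 (SE 1.02, adjusted p = 0.649). For both genes all 3 EGF arrays lay well above the unstimulated one, and neither passed the test. When time and stimulus were fitted as additive terms, with serum sharing the estimate of each time, EGR3 (3.40), EGR1 (2.35) and CCN2 (2.98) were past the threshold with adjusted p = 0.00532, 0.00532 and 0.000905, and PRR7 was not.

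The AP-1 factors differed in when they peaked. FOS read 33.1 unstimulated and 239, 500.9 and 362 after EGF, highest at 40 min, with the largest mean difference of all genes tested (3.33, SE 1.16, adjusted p = 0.667). FOSB climbed through the hour from 2.6 to 18.1, 35.3 and 51.4 (2.17, SE 1.01, adjusted p = 0.782), from an unstimulated signal near the bottom of the scale. JUN, the partner of the FOS proteins, read 277.1, 457.8, 707.8 and 736.3 (1.17, SE 0.43). The other JUN probe sets were dimmer and highest at 40 min (183.4, 182.2 and 60.2, against 169.9, 132.4 and 49.5 at 60 min). JUNB read 197.7, 303.1, 420.8 and 579.8 (1.13, SE 0.69). FOSL1, a FOS relative that accumulates later, read 68, 95.4, 134.7 and 217.7 (1.10, SE 0.41). Each of these 5 genes was above the unstimulated array at all 3 times, and none passed the test.

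**Figure D1:**
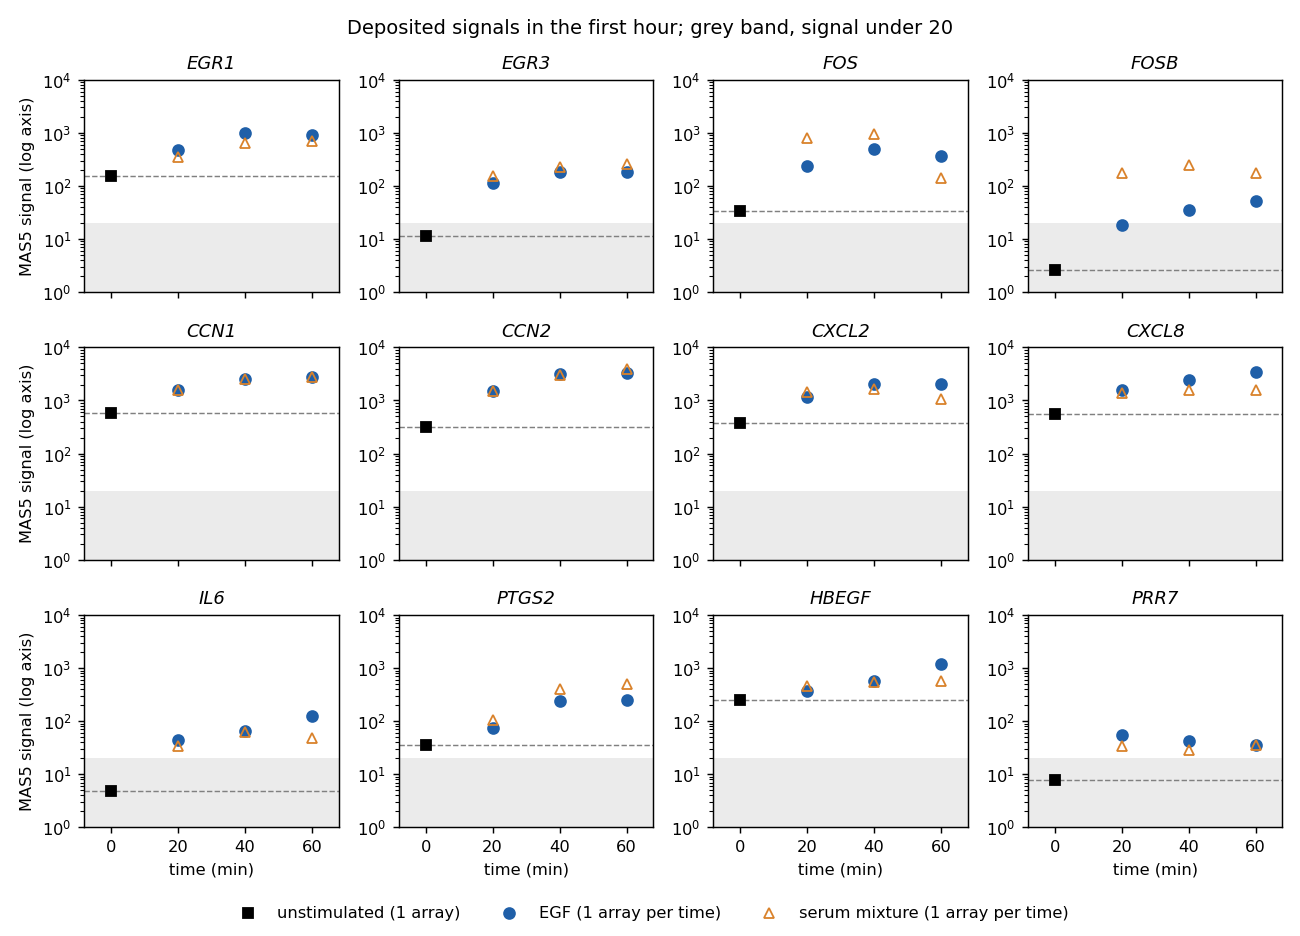
MAS5 signal (log axis) of 12 genes on the unstimulated array (black squares) and on the arrays of 20, 40 and 60 min after EGF (blue circles) or the serum mixture (open triangles), 1 array per point; the grey band marks signals under 20. In each panel the 3 EGF points lie above the dashed unstimulated level; for EGR3, FOSB, IL6 and PRR7 that level lies in the grey band.

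As a group the immediate early transcription factors stood above the unstimulated array. Of 18 listed, 17 were on the arrays with 1 gene symbol and 16 were tested; EGR2 had no such probe set in the annotation and NR4A3 was under the filter. All 3 EGF arrays were above the unstimulated one for 14 of the 16 and below it for 0, against 2060 (26.6%) and 2100 (27.2%) of all genes tested. The median of their mean differences was 1.08 (all genes, -0.005), and by time it was 0.69 at 20 min, 1.36 at 40 min and 1.45 at 60 min. Past the threshold were 0, and 4 (EGR1, EGR3, FOS and FOSB) were at least 2-fold above on all 3 arrays. The other members with large values were IER2 (342.2 unstimulated and 641.2, 1020.1 and 1312.2 after EGF), the zinc-finger factor KLF6 (143.2, 274.2, 358.2 and 228.4) and the nuclear receptor NR4A1 (20.4, 35.5, 88.7 and 80.7). The 2 members whose arrays lay on both sides of the unstimulated value were NR4A2 (11.1, 9.7, 24.5 and 40.8) and EGR4 (20, 16.9, 34.8 and 32.8). On other probe sets EGR4 read 2.4, 13.6, 19.1 and 20.5, and NR4A2 13.5, 22.3, 29.5 and 26.6. A further NR4A2 probe set had mixed signs (mean difference -0.12). Growth factor studies are known for these genes, so the counts of this list are no independent evidence of its direction.

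MYC, which drives cell growth and is often listed with the immediate early genes, stayed near its starting level. Its signal was 2494.1 unstimulated and 2958.8, 2855.1 and 2786.3 after EGF (0.06, SE 0.31, adjusted p = 0.995). SRF, whose own promoter holds the CArG boxes shown above, read 78.5, 78.9, 130.8 and 117.2, at the unstimulated level at 20 min and above it later. A second, dimmer SRF probe set read 14.7, 24.3, 3.4 and 21 and had a mean difference of -0.02.

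Among the secreted proteins CCN2 and CCN1, matrix-associated regulators of adhesion and growth, were above the unstimulated array at every time. CCN2 read 321.3 unstimulated and 1499.3, 3190.2 and 3269.1 after EGF (2.92, SE 0.92, adjusted p = 0.649). CCN1 read 593, 1580.3, 2495.9 and 2742.2 (1.84, SE 0.44, adjusted p = 0.405), and its second probe set 429.5, 1476.7, 2710.6 and 2256. Both genes are targets of SRF and of the YAP coactivator. The rest of that list stood near its starting level. Of its 12 tested members 9 were above on all 3 arrays and 0 below, but the median was 0.23, and TAGLN (479, 526.7, 718.3 and 769.4) and FHL2 (399.2, 402.1, 624.6 and 639.2) came next after CCN1.

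CXCL8 and CXCL2, chemokines that attract neutrophils, were at least 2-fold above the unstimulated array at every time. CXCL8 climbed from 555.9 to 1559.4, 2390.2 and 3394.9 (1.9972, SE 0.43, adjusted p = 0.307), and its second probe set from 211.1 to 360.7, 709.6 and 1004.9. CXCL2 read 377.6, 1140.5, 2049.5 and 2061.2 (2.14, SE 0.37, adjusted p = 0.145). Their relatives had smaller differences, with CXCL1 at 1253.4 unstimulated and 1728.1, 1872.3 and 1879.6 after EGF (0.44) and CXCL3 at 65.2, 83.6, 85.1 and 102.1 (0.54). Of 6 tested chemokines 5 were above on all 3 arrays, 0 below, with a median of 0.88. The interferon-induced CXCL10 was the exception (43.2, 44.5, 22.3 and 15.8).

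Among cytokines of the acute response, IL6, LIF and IL1A were highest at 60 min on the probe sets tested. IL6 was already above by 2.19 at 20 min. IL6 read 4.9 unstimulated and 43.4, 66.7 and 125.2 after EGF (2.85, SE 0.50, adjusted p = 0.145). LIF, a cytokine of the same family, read 53, 56.8, 123.9 and 272.7, near its starting level at 20 min. IL1A, an alarm cytokine of epithelia, read 710.4, 909.4, 1648.2 and 2491.6, but its second, dimmer probe set read 81.7, 40.2, 49.6 and 57.3. Of 8 tested cytokines and their receptors 6 were above on all 3 arrays and 1 below, with a median of 0.70 that went from 0.27 at 20 min to 1.23 at 60 min. None passed the test. The 9 tested NF-kB subunits and feedback genes had a median of 0.04, with 2 above on all 3 arrays and 3 below; the largest value was that of TNFAIP3, an inhibitor of the pathway (670.6, 872.7, 1498 and 1767.8; 0.95, SE 0.50). The inhibitor NFKBIA, a common early target of NF-kB, read 1144.3, 1151.7, 1105.7 and 1063.1.

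Other genes of the 37 with an unstimulated signal of 20 or more included enzymes, a hormone and cell cycle regulators. PTGS2 read 35.2 unstimulated and 74.6, 243.5 and 248.7 after EGF (2.19, SE 1.05, adjusted p = 0.785). ADM, the vasodilator peptide adrenomedullin, was nearly flat across the hour at 576, 677.9 and 606.1 against 258.7, and its small error gave 1.27 (SE 0.19, adjusted p = 0.0935). GADD45A, a growth arrest and stress gene, read 275, 646.7, 722.1 and 750. The kinase PLK2 read 356, 718.6, 882.7 and 956.4, just inside the 2-fold rule with a smallest difference of 1.03. MGMT, a DNA repair enzyme, read 41.4, 100.1, 83.6 and 107.9 (1.25, SE 0.19, adjusted p = 0.0935). ADM was past the threshold when the variances followed a trend and were fitted robustly (adjusted p = 0.00751), and ADM and MGMT were past it with a stricter filter at the 60th percentile (adjusted p = 0.0448 for both). Among 17 other fast transcripts the median was 0.32 and 9 were above on all 3 arrays. IER3, an inhibitor of apoptosis, climbed from 1293.2 to 2389.1, 3268.6 and 4030.1 without reaching 2-fold at 20 min.

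PRR7, which encodes a proline-rich transmembrane adaptor protein, was the gene past the threshold. Its signal was 7.9 unstimulated and 54.1, 41.5 and 35.2 after EGF, highest at 20 min, a mean difference of 1.84 (SE 0.22, 3 of 3 arrays higher, adjusted p = 0.0333). All of its other arrays were above the unstimulated one too, between 17 and 40.8. Its unstimulated level, 3.76 on the log2 scale, was 1 dim reading under the filter of 4.68. PRR7 was therefore tested only because its stimulated arrays raised the mean, and their height is no separate evidence of a rise. The call was kept in 8 of 21 alternatives, with adjusted p from 0.00904 to 0.461 over all of them, and the difference ran from 1.081 to 2.502. Leaving out EGF at 20 min gave adjusted p = 0.0615 and EGF at 40 min adjusted p = 0.136. The call was also lost without EGF at 480 min (adjusted p = 0.0749), serum at 20, 40 or 60 min (0.0652, 0.0928 and 0.0506) and serum at 120 or 480 min (0.0761 and 0.0865).

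The brightness of the unstimulated reading divided the 37 genes. On that array 22 of them had a signal under 20, where 172 (2.22%) of the genes tested lay, 15 had 20 or more and 8 had 100 or more (ADM, CCN1, CCN2, CXCL2, CXCL8, EGR1, GADD45A and PLK2). Of the 15 brighter genes 9 were on a gene list, against 3 of the 22 dim ones (EGR3, FOSB and IL6). The share of all genes tested that were on a list was not taken. The lists were chosen with earlier results of these data known, so these counts are no evidence about either group. Among the dim ones were TRAPPC6A, a subunit of a vesicle transport complex (4.2 unstimulated; 32.8, 32.5 and 36 after EGF), HLA-DQB2 (4; 26.6, 39.5 and 28.1), the growth factor FGF6 (6.6; 34.7, 32.4 and 36.7) and the homeobox factor HOXC13 (4.2; 22.3, 23.7 and 23.7). Just inside the 2-fold rule were SGF29 (smallest difference 1.03), PLK2 (1.03) and RANBP3 (1.01), and just outside were SLC25A4 (0.95), TOMM22 (0.95) and C11orf68 (0.94).

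**Figure D2:**
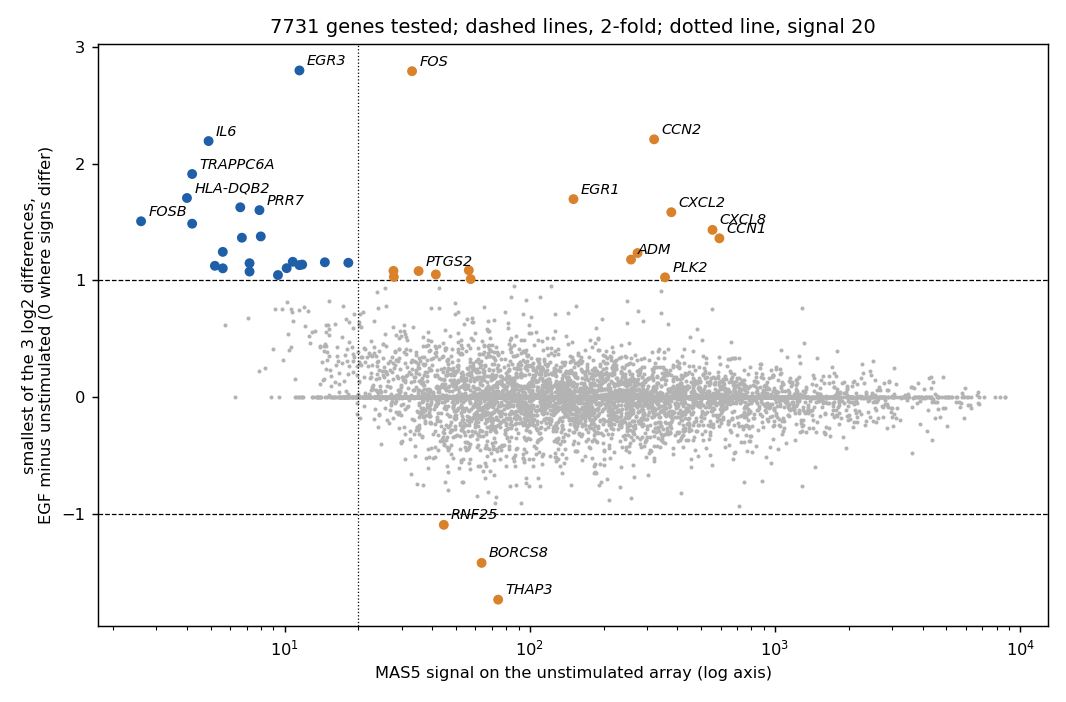
Smallest of the 3 log2 differences, EGF minus unstimulated, against the signal on the unstimulated array (log axis) for 7731 genes, set to 0 where the 3 differences have mixed signs; coloured points are the genes at least 2-fold away on all 3 arrays. Of the 37 upper points, 22 lie left of a signal of 20 (blue); the 3 lower points are between 44.6 and 74.3.

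The balance of 37 genes above to 3 below changed with the filter on dim genes. The filter used the mean of all 13 arrays, so a gene that was low on the unstimulated array alone passed it, while a gene high there alone tended to fail. Without a filter 92 genes were at least 2-fold above on all 3 arrays and 81 below, and with the filter at the 60th percentile 14 and 0. Restricted to genes with an unstimulated signal of at least 20, a choice made after seeing the data, the counts were 15 and 3. The 14 genes of the stricter filter were ADM, CCN1, CCN2, CXCL2, CXCL8, EGR1, EGR3, FOS, GADD45A, HSDL2, MGMT, PLK2, PTGS2 and RANBP3. As a scale for single arrays, 79, 97 and 106 genes were at least 2-fold above the unstimulated array at 20, 40 and 60 min and 77, 120 and 98 below. Between EGF arrays of neighbouring times the numbers were of the same order, with 84 genes higher and 101 lower at 40 than at 20 min, and 105 higher and 83 lower at 60 than at 40 min. Without the 20 min array, 62 genes were at least 2-fold above and 12 below on both remaining arrays, and without the 40 or the 60 min array the totals were 58 and 53 against 40 on all 3.

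The genes at least 2-fold below the unstimulated array were few and dim. THAP3 read 74.3 unstimulated and 4.7, 3.9 and 16.2 after EGF (-2.48, SE 0.52, adjusted p = 0.293), but its second probe set read 11.4, 5.3, 4.2 and 13.2. BORCS8, part of a complex that positions lysosomes, read 63.6, 17.7, 9.1 and 4.5 (-2.03, SE 0.48, adjusted p = 0.405). RNF25, a ubiquitin ligase, read 44.6, 14, 16 and 6.8. Brighter genes came close to 2-fold. PGF, placental growth factor, read 712.6, 371.4, 365.6 and 340.4 (-0.99, SE 0.26, adjusted p = 0.462), with 39.6, 38.3, 32.9 and 17.8 on its second probe set. UFM1, a ubiquitin-like modifier, read 258.8, 98.6, 134.4 and 133.3 (-1.03, SE 0.19, adjusted p = 0.163). The zinc-finger gene ZNF44 read 210.9, 89.7, 107.4 and 71.6, the ubiquitin ligase WWP2 71.8, 33, 16.7 and 30.8, and MAN1A1, a mannosidase of the Golgi, 91.9, 43.8, 40.5 and 41.9. None of these 8 genes passed the test.

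The feedback arm of the pathway was read from its phosphatases, inhibitors and ligands. DUSP5, a nuclear ERK phosphatase, read 49.6 unstimulated and 77.9, 168.8 and 151.6 after EGF (1.38, SE 0.44, adjusted p = 0.659). DUSP6, its cytoplasmic counterpart, climbed from 366.9 to 560.5, 600.8 and 772 (0.81, SE 0.39, adjusted p = 0.787). DUSP4 read 248.8, 504.3, 482.7 and 430.8, although its second probe set had a mean difference of 0.30. Of 7 tested phosphatases 4 were above on all 3 arrays and 2 below (DUSP7 and DUSP8), with a median of 0.52. The 12 receptor and RAS pathway inhibitors had a median of 0.10, with 3 above on all 3 arrays: TRIB1 (133.5, 151.4, 241.5 and 331), SOCS1 (31.1, 44.1, 49.4 and 44.5; its other probe sets were dimmer and differed in sign) and SPRY2 (143.7, 194.3, 187.6 and 204.8).

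Of 7 listed ligands of the EGF family 4 were tested. AREG had no probe set with 1 symbol, and EGF and BTC were under the filter. Among the 4 tested, HBEGF was the one with a large value. It read 248.3 unstimulated and 378.2, 570.7 and 1206.5 after EGF, climbing at each time (1.39, SE 0.59, adjusted p = 0.743), and its second bright probe set read 160.8, 169.5, 390.1 and 778.7. The ligands EREG (143.7, 157.5, 169.3 and 135.1) and TGFA (292.6, 221.7, 220.2 and 260.5) showed no such climb. The direction of TGFA differed between probe sets. A dimmer one was above at all 3 times (20.3, 45.9, 39.9 and 38.7, mean difference 0.91), and another had mixed signs (-0.04). The 8 tested receptors and proximal adaptors had a median of 0.00, with 0 above on all 3 arrays and 3 below. The 10 tested members of the cascade from RAS to ERK had a median of 0.02, with 3 above and 2 below. In both groups 0 passed the test.

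Most of the remaining lists had medians near that of all genes. Of 17 delayed early AP-1 and partner factors 7 were above on all 3 arrays and 5 below (median 0.14). Of 9 G1 cyclins and inhibitors 0 were above and 3 below (median -0.001), and cyclin D1 (CCND1) read 207.8, 171.7, 132.1 and 155. Of 18 DNA replication and mitosis genes 4 were above and 5 below (0.04). Of 13 ribosome biogenesis and MYC targets 3 were above and 7 below (-0.11), the lowest being RRS1 (334.1, 254.2, 155 and 178.3). Among 14 FOXO and growth arrest genes the median was 0.02, with GADD45A at the top and TSC22D3 (184.9, 148.4, 119 and 83.9) and KLF9 (57, 37.8, 33.2 and 24.4), both known as glucocorticoid-induced, at the bottom. The 7 tested genes of mRNA decay and of the BTG and TOB family had a median of -0.10, with ZFP36, which speeds the decay of cytokine messages, apart from the rest (153.8, 252.6, 454.3 and 389.4). The medians were 0.10 for p53 targets, 0.16 for BMP, TGF-beta and Notch regulators, -0.04 for integrated stress response genes and -0.14 for interferon response genes. They were 0.02 for housekeeping genes, 0.05 for basal and 0.07 for luminal epithelial markers. The 3 tested markers of other cell types had the lowest median, -0.46. In all of these lists 0 passed the test.

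Without the array of 20 min, the mean of the 40 and 60 min differences was 3.60 for FOS, 3.46 for EGR3, 2.67 for EGR1, 3.27 for CCN2, 3.18 for IL6, 2.75 for PTGS2, 2.42 for CXCL2 and 2.28 for CXCL8, a setting added after seeing the data. In each of these genes the 20 min difference was the smallest of the 3, so leaving it out had to raise the mean. The immediate early factors had a median of 1.34, with 16 of 16 above the unstimulated array on both arrays, where 2677 of all genes tested were above on both and 2759 below. The medians were 1.03 for chemokines, 0.88 for cytokines and 0.51 for phosphatases.

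**Figure D3:**
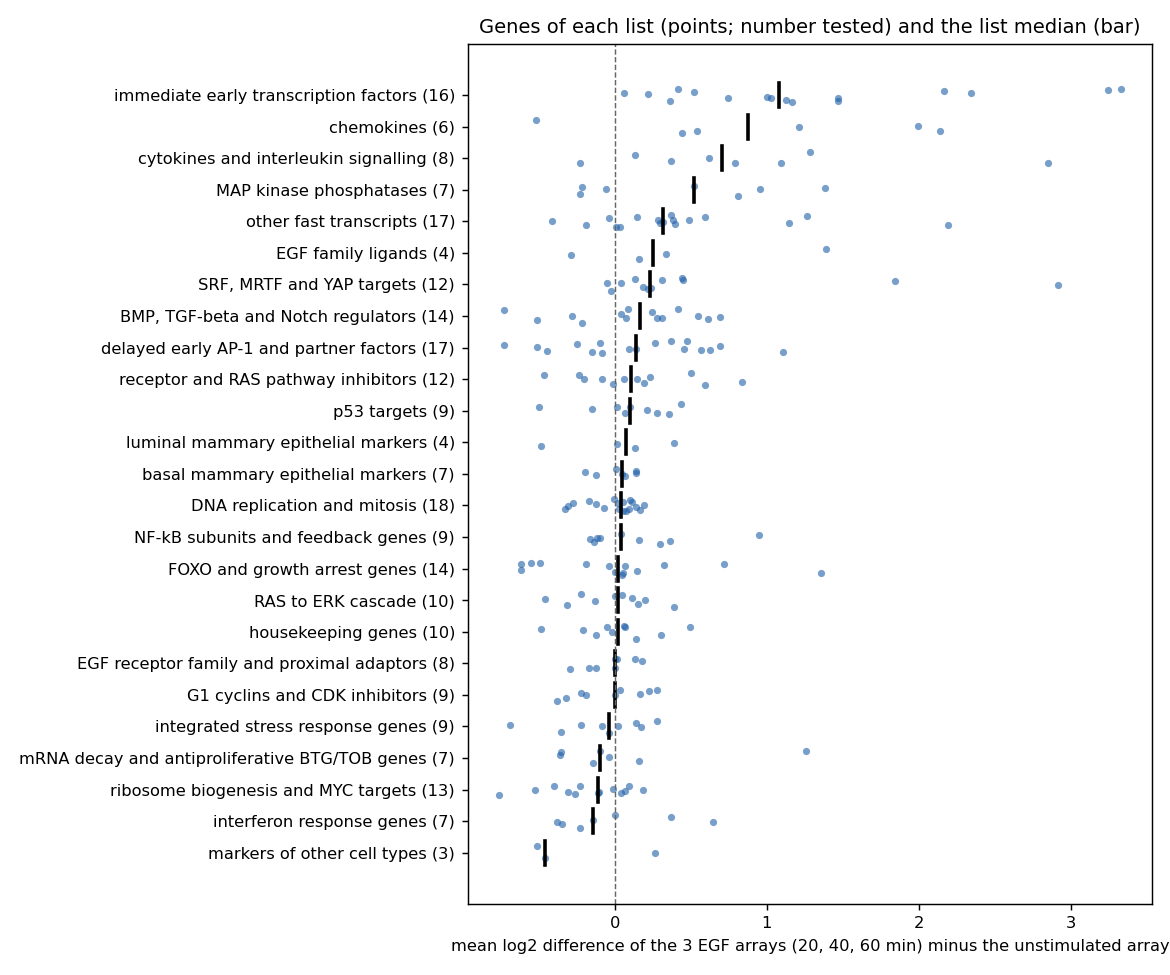
Mean log2 difference of the 3 EGF arrays from the unstimulated array for the tested genes of each of 25 lists (points; number tested in parentheses) with the list median (black bar). The immediate early factors (median 1.08), chemokines (0.88), cytokines (0.70) and phosphatases (0.52) lie to the right of 0, and most other medians lie close to it.

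Within the hour the 37 genes did not share one course. Their median difference was 1.37 at 20 min, 1.53 at 40 min and 1.45 at 60 min. The highest of the 3 arrays was that of 20 min for 6 genes, of 40 min for 13 and of 60 min for 18. A steady climb over the 3 times was seen in 13 genes, among them CXCL8, CCN1, CCN2, FOSB and IL6, and a steady decline in 5. For the 15 genes with an unstimulated signal of 20 or more the medians were 1.23, 1.38 and 1.45, and for the 8 with 100 or more 1.40, 2.01 and 2.30. For the 22 genes under 20 they were 1.49, 1.57 and 1.41. The genes were chosen against, and divided on, the same unstimulated array, so a low reading there enters every one of these differences. Of the 37, 19 were higher at 60 than at 40 min and 18 lower.

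The first hour was then set against the later EGF arrays, a comparison in which the unstimulated array has no part. By limma 13 genes (0.168%) were higher in the first hour than at 120 to 480 min and 6 (0.0776%) lower, and 1120 had an unadjusted p under 0.05. CXCL2 fell from its first-hour level to 639.7, 441.2 and 440.1 at 120, 240 and 480 min (first hour minus late 1.75, SE 0.26, adjusted p = 0.0308). ADM fell to 335.2, 364.3 and 320.8 (0.88, SE 0.14, adjusted p = 0.0336). SOCS1, an inhibitor of cytokine receptor signalling, fell to 12.2, 7.4 and 11 (1.63, SE 0.20, adjusted p = 0.0132), and the phosphatase DUSP1 went from 1725.6, 1873.6 and 1458.5 to 556.4, 611.6 and 550.7 (1.55, SE 0.17, adjusted p = 0.00959). Of these, DUSP1 and SOCS1 ended below their unstimulated signals of 1123.3 and 31.1. The largest difference was that of the repressor ZBTB16, which read 162.7 unstimulated, 126.9, 128.1 and 115.1 in the first hour and 23.6, 14.7 and 6.5 later (2.65, SE 0.25, adjusted p = 0.00312).

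Of the 6 genes lower in the first hour, TGFA, EREG and TRIB3 are described. On its brightest probe set the ligand TGFA went from the first-hour readings above to 566.2, 658.5 and 485.4 (first hour minus late -1.24, SE 0.16, adjusted p = 0.0151). EREG went to 487.1, 474.4 and 268.9 (-1.32, SE 0.22, adjusted p = 0.0492). TRIB3, a stress-induced pseudokinase, read 229.7, 214.8 and 324.2 in the first hour and 507.5, 713.9 and 889.2 later (-1.41, SE 0.20, adjusted p = 0.0201). HBEGF, which did not pass the test and was above its unstimulated signal at all 3 early times, reached 2430 at 120 min and stood at 1136.6 and 906.6 after that (-1.06, SE 0.42, adjusted p = 0.291). The total of 19 calls was 1 without EGF at 40 or 240 min, 2 without EGF at 20 min, 6 without EGF at 480 min, 25 without EGF at 60 min and 28 without EGF at 120 min. Without serum at 20, 40, 60 or 240 min it was 8, 11, 10 and 10.

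Of the 37 genes, 2 (ADM and CXCL2) were among the 13. For the 15 genes with an unstimulated signal of 20 or more the median difference from the unstimulated array was 0.94 at 120 min, 0.87 at 240 min and 0.76 at 480 min, and 4 of the 15 were still 2-fold above at 480 min. For the 8 of them with 100 or more the medians were 1.004, 0.57 and 0.24, and 1 of the 8, CXCL8, was still 2-fold above at 480 min. For the 22 genes under 20 the medians were 1.38, 1.22 and 1.39, and 14 of the 22 were 2-fold above at 480 min. All 12 stimulated arrays were above the unstimulated one for 16 of the 22, 11 of the 15 and 6 of the 8. The first-hour EGF arrays among the 12 were above by the 2-fold rule. The share of all genes tested with all 12 above was not taken, so these counts are no evidence of a lasting rise. These medians and counts describe genes picked for high readings on the first-hour EGF arrays against the unstimulated array. The later arrays had no part in the 2-fold rule, so that rule by itself can make later values lower than those of the first hour. They did have a part in the filter, which used the mean of all 13 arrays. A gene dim on the unstimulated array tended to pass the filter only with high stimulated arrays, the later ones included. That can make the later values of the 22 dim genes higher. The shares of the rule and of the filter in these medians and counts were not tested. The medians are no test of a fall after the first hour, or of a difference between bright and dim genes. EGR3 departed from the other dim genes, with 155.1 at 120 min and 17.5 and 16.9 at 240 and 480 min, and so did FOSB, with 34.8, 4.9 and 1.1.

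**Figure D4:**
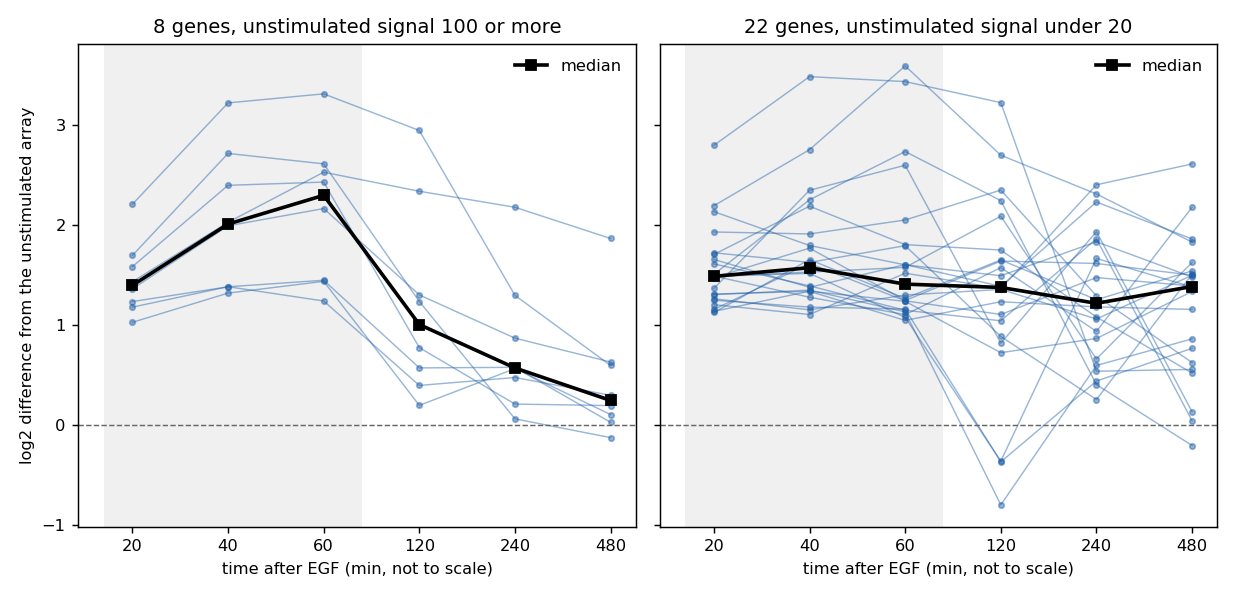
Log2 difference from the unstimulated array on the 6 EGF arrays (thin lines, 1 gene each; black squares, median; shaded, the first hour; times not to scale) for 8 genes with an unstimulated signal of 100 or more and 22 with a signal under 20, all at least 2-fold above on the 3 first-hour arrays. The median of the brighter genes goes from 2.30 at 60 min to 0.24 at 480 min, and that of the dim genes from 1.41 to 1.39. The 2-fold rule used the first-hour arrays and not the later ones, which by itself can make the later values lower. The filter on dim genes used all 13 arrays, which can make the later values of the dim genes higher.

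EGF and the serum mixture were compared directly at 20, 40 and 60 min, with time as a block (4 residual degrees of freedom), since both share the unstimulated array. Of 7731 genes 0 (0%) passed the threshold, 535 had an unadjusted p under 0.05 with EGF higher and 579 with EGF lower, and the smallest adjusted p was 0.0544. With variances that follow a trend and are fitted robustly, 178 were past it (76 higher and 102 lower after EGF), so the count depends on the variance model. The genes described next were near the threshold and lower after EGF. Of them KLF4, DUSP1 and ATF3 were named after their values were seen. KLF4, a zinc-finger factor, read 79.9, 67.6 and 94 after EGF and 278.8, 400.5 and 582 after serum, against 90.8 unstimulated (EGF minus serum -2.26, SE 0.21, adjusted p = 0.0544). DUSP1 read 1725.6, 1873.6 and 1458.5 after EGF and 3693.3, 5490.6 and 4985.8 after serum (-1.56, SE 0.15, adjusted p = 0.0579). FOSB read 18.1, 35.3 and 51.4 against 172.9, 246.8 and 173.9 (-2.39, SE 0.24, adjusted p = 0.0588). ATF3, a stress-induced factor of the immediate early list, read 27.7, 74.8 and 48.9 against 177.5, 449.8 and 286.4 (-2.45, SE 0.27, adjusted p = 0.0844). In all of these the 3 EGF arrays lay below the 3 serum arrays, as in 885 (11.4%) of the genes tested, with 791 (10.2%) the other way round. At 40 and 60 min alone the mean differences were -2.52 for KLF4, -1.68 for DUSP1, -2.16 for FOSB and -2.47 for ATF3. With 4 times the offset, which damps dim signals, KLF4, DUSP1, FOSB and ATF3 were past the threshold, each at adjusted p = 0.00748. So were NR4A2 (-1.583) and SURF2, which was higher after EGF (0.87), both at adjusted p = 0.0415. SURF2 was also the gene past the threshold without an offset (2.075, adjusted p = 0.047).

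For CCN2, CCN1, ADM and EGR3 the differences between stimuli were smaller than for those 4 genes. CCN2 read 1499.3, 3190.2 and 3269.1 after EGF and 1500.5, 3071.9 and 3842.6 after serum, a difference of -0.11 (SE 0.11, adjusted p = 0.688). For CCN1 the difference was -0.06 (SE 0.11), for ADM -0.09 (SE 0.11) and for EGR3 -0.37 (SE 0.14). FOS was highest at 40 min after both, but lower after EGF at 20 and 40 min and higher at 60 min, with 239, 500.9 and 362 after EGF and 789.6, 932.4 and 142.4 after serum (-0.43, SE 0.69). The nuclear receptors NR4A1 (-1.12) and NR4A2 (-2.13) and PTGS2 (-0.70) had less signal after EGF. IER3 and CXCL8 had more. IER3 read 2389.1, 3268.6 and 4030.1 after EGF and 1840.3, 1419.9 and 1126.4 after serum (1.07, SE 0.28, adjusted p = 0.203), and CXCL8 differed by 0.57 (SE 0.21, adjusted p = 0.312). The median of the immediate early list was 1.08 after EGF and 1.40 after serum, both against the same unstimulated array.

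**Figure D5:**
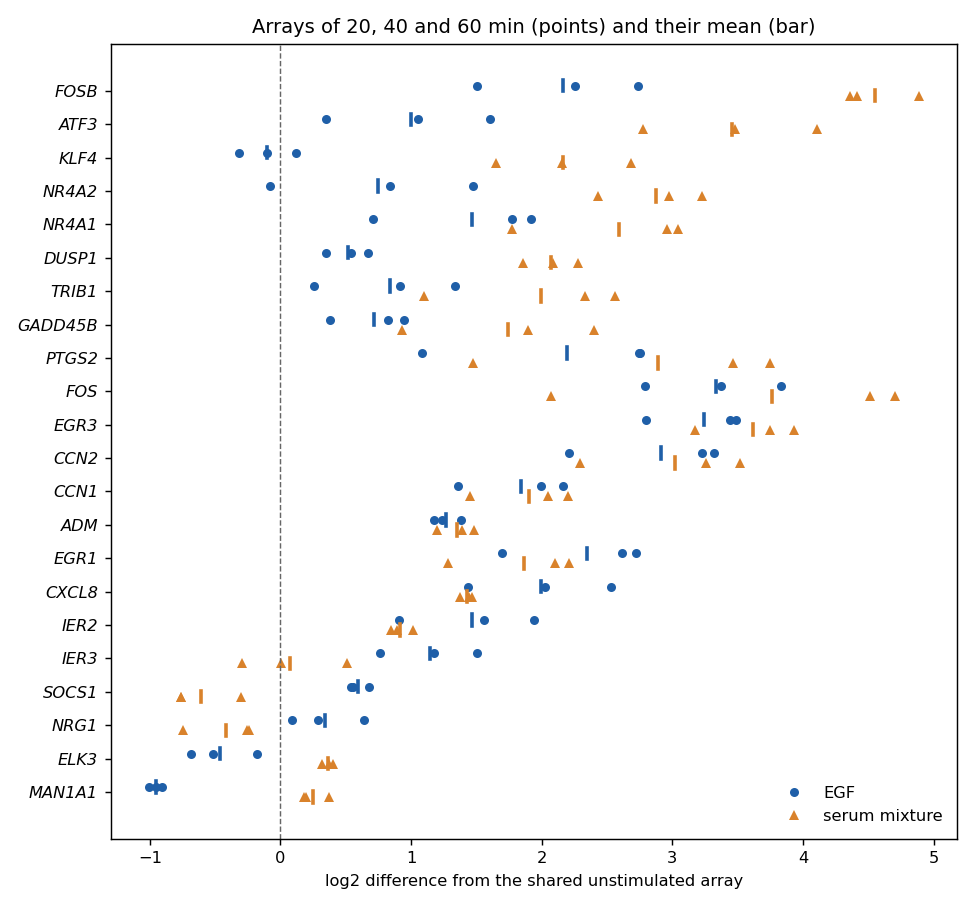
Log2 difference from the shared unstimulated array for 22 genes, with 1 point per array of 20, 40 and 60 min and a bar at the mean, for EGF (blue circles) and the serum mixture (orange triangles). FOSB, ATF3, KLF4 and DUSP1 have no overlap between stimuli, CCN2, CCN1 and ADM overlap closely, and SOCS1, NRG1, ELK3 and MAN1A1 lie on opposite sides of 0, as in 3.84% of genes tested.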

How the data were processed

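RNA from MCF10A cells was hybridised to 13 Affymetrix arrays of 22277 probe sets. The deposited values are intensities, the linear signal of MAS5 per the submitters' processing notes (version not given in the sources used here), and the authors had scaled each array to one mean (150.04 to 150.05 after trimming 2% at each end). From these, log2(signal + 6) was taken, and the arrays were quantile normalized (R 4.3.3, limma 3.58.1). Signals are printed as deposited. Quantile normalization moved the median gene difference by under 0.1 (-0.045 to -0.033 without it). Of 22215 probe sets other than 62 controls, 19064 carried 1 symbol in the platform annotation (1043 several, 2108 none) and 19052 matched the RefSeq table by Entrez number. Each of 11963 genes took its brightest probe set on average, and 7731 at or above the 40th percentile (4.68) were tested.

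A limma fit of 5 groups over all 13 arrays gave the EGF first hour against the unstimulated array; the lone array is assumed to vary like the others. The p-values are two-sided, adjusted by Benjamini and Hochberg, and measure the spread between arrays, which includes time. EGF was compared with serum over the 12 stimulated arrays. The procedure was tested on simulated data. Named genes were those past the threshold, the 12 highest and 8 lowest by the smallest of the 3 differences, up to 2 of each list, and FOS, EGR1, MYC, DUSP6 and HBEGF; for the other comparisons also the 3 largest each way; further genes were named after their values were seen. The members and lists were chosen with earlier results of these data known. Detection calls were not used here. Motifs were searched on both strands. Alternatives were other offsets, filters, probe set rules, variance models, codings of time and each array left out. Figures were drawn with matplotlib 3.10.9, and tables were made with pandas 2.3.3 and numpy 2.4.6 in Python 3.11.15.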

Additional observations from a re-analysis of the deposited data

Results flagged for a closer look

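In 6 of 99 named genes all 3 EGF arrays of the first hour lay on one side of the unstimulated array and all 3 serum arrays on the other, against 297 (3.84%) of all 7731 genes tested. The named genes include some picked after their values were seen, so their share is no evidence of an excess. For SOCS1 EGF minus serum was 1.20 (SE 0.15, adjusted p = 0.136) and for NRG1, an ERBB3 ligand, 0.75 (SE 0.15, adjusted p = 0.161). EGF lay below serum for MAN1A1 (-1.20, SE 0.16, adjusted p = 0.136), for TSC22D3, a glucocorticoid-induced regulator (-1.13, SE 0.20, adjusted p = 0.153), for ELK3, an ETS factor (-0.82, SE 0.15, adjusted p = 0.154), and for ZFP36L2 (-0.58, SE 0.13, adjusted p = 0.177). None passed the limma test of the difference, and the signs rest on the shared unstimulated array and on the probe set taken. A second, dimmer probe set had a mean EGF difference of 0.50 for ELK3, 0.08 for TSC22D3 and -0.17 for MAN1A1. The other NRG1 probe sets ran from -0.58 to 1.20 and those of SOCS1 from -0.12 to 0.65. Those of ZFP36L2 were also below (-0.55 and -0.23).

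Probe sets without 1 gene symbol stayed out of the tests. Of 1584 of them above the filter, 8 were at least 2-fold from the unstimulated array on all 3 EGF arrays, 5 above and 3 below. The highest of the 5 read 1.6 unstimulated and 27, 37.1 and 56.6 after EGF, and the next 35.3, 100.1, 111.9 and 98.2.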

How the results depend on the processing

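The single call against the unstimulated array was 0 with 4 times the offset, with the 4 arrays alone and with the 7 arrays up to 60 min, 2 with the stricter filter, 3 without a filter (1 higher, 2 lower) and 3 with additive terms, and 0 to 3 with single arrays left out. With trended and robust variances, both changed at once, it was ADM in place of PRR7. The 40 genes at least 2-fold away on all 3 arrays became 56 without an offset, 11 with 4 times the offset, 173 without a filter, 14 with the stricter filter, 18 at an unstimulated signal of at least 20, and 53 to 74 with an EGF array left out. EGF minus serum, with 0 calls, had 1 without an offset, 6 with 4 times the offset, 2 without quantile normalization, 9 with the stricter filter, 2 with the mean of probe sets, 178 with those variances, 7 without the time block and 0 to 1 with arrays left out. First hour minus late, with 19, had 8 without a filter, 57 with the stricter filter, 69 with those variances and 1 to 28 with arrays left out. By its rule the count of 2-fold genes can only grow when an EGF array is left out. A stricter filter or a minimum signal can only lower it. The causes of the other changes were not tested. Of 2143 values of 99 named genes under other settings, 2113 kept direction and side of the threshold and 9 changed sign. Those were KRT14 (0.059) without quantile normalization, ELK3 (0.02), CCNE2 (0.013), COL1A1 (0.023) and TGFA (0.193) with the mean of probe sets, SOCS1 (-0.043) and TRIB3 (0.153) with additive terms, KLF4 (0.011 without EGF at 40 min; -0.21 to 0.011 with single arrays left out) and IRF7 (0.033 without EGF at 60 min; -0.659 to 0.033). The 7-array fit and the minimum unstimulated signal were chosen after seeing the data. The lone unstimulated array limits every difference from it.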
